A study of Macaca mulatta with 10 samples.

Results

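HAPLN1, COLEC12, NR2F2, ERP27 and DENND1B stood among the genes with the largest differences from embryonic stem (ES) cells when rhesus macaque ES cells entered differentiation. The 5 genes are read by 8 of the 44210 tested probe sets of the rhesus macaque array, 3 for HAPLN1 (gene number 712501), 2 for NR2F2 (707483) and 1 each for COLEC12 (700031), ERP27 (700186) and DENND1B (713131). All 8 were in the data and none was filtered out. The arrays came from ORMES6, a rhesus macaque ES cell line, in 5 groups of 2 arrays. The ES group is the undifferentiated line, which was kept on mouse embryonic fibroblast feeders in medium with bFGF. IVDS2 and IVDS3 are cells at differentiation stages 2 and 3, IVDS2-C the central foci of colonies at stage 2, and IVDS2-P the peripheral area of such colonies. To differentiate, the cells were grown together with hESdF, which are fibroblast-like and derived from human ES cells. The ES group thus differs from the other groups in the cells grown with it as well as in stage. In the distances from ES cells these cannot be told apart. Whether RNA of hESdF or of the feeders reached the arrays was not tested. All samples come from 1 cell line, and the labels give no days and do not say whether the repeats were separate cultures. The p-values therefore measure only the spread between these samples, which may be technical. The number of arrays limits the precision.

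The genes belong to different cell functions. HAPLN1 is a secreted link protein that fastens proteoglycans such as versican to hyaluronan in the extracellular matrix. COLEC12 is a membrane-bound collectin that acts as a scavenger receptor, taking up ligands through its lectin and collagen-like parts. NR2F2, also called COUP-TFII, is a nuclear receptor that works as a transcription factor in mesenchyme, veins and several developing organs. ERP27 is a protein of the endoplasmic reticulum (ER) related to the protein disulfide isomerases, without their redox activity, and binds the isomerase PDIA3. DENND1B activates the small GTPase RAB35, which acts in endocytosis and membrane recycling.

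The members were picked from results of these arrays, by their distance from ES cells at stage 2, so that distance is described here and not tested. Each value is a log2 expression value of 1 probe set on 1 array, centred on the median of that probe set over the 10 arrays. A value of 0 is thus the middle array of that probe set, a step of 1 is a doubling, and neither the absolute level nor the order of abundance between genes can be read. Differences are log2 differences from a limma model of all 10 arrays, with their standard error (SE). The model shares 1 estimate of the spread of each probe set over the 5 groups. An SE thus also holds the spread of groups outside its comparison. By the mean of a gene's probe sets, HAPLN1 ranked 1 among the 13191 genes for its height above ES cells in whole IVDS2 cultures, COLEC12 ranked 2, NR2F2 ranked 4, ERP27 ranked 5 and DENND1B ranked 11. The genes on either side of DENND1B in that order were TFPI (3.78), at rank 10, and MMRN1 (3.63), at rank 12. In the colony centre DENND1B ranked 7 and ERP27 38, and in the periphery they ranked 7 and 46. On all 8 probe sets both ES arrays lay below the 8 other arrays, which was so for 8.83% of all tested probe sets. The choice of the genes used this contrast, so nothing is read from that count.

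The ES arrays differed from each other more than the arrays of any other group, with an SD of the replicate difference over probe sets of 0.40 against 0.24 to 0.28 for IVDS3, IVDS2-P and IVDS2 and 0.29 for IVDS2-C. Pluripotency markers were highest in the ES group, with a list mean of 1.06 and 1.37 on the ES arrays. The list mean was 0.24 and -0.16 on IVDS2, -0.23 and -1.06 on IVDS2-C, and 0.58 and 0.47 on IVDS2-P. On IVDS3 the mean was -1.94 and -1.86. Limma called 4 of 10 lower and 1 higher in IVDS2 than in ES cells, beside 6.23% and 6.50% of all genes. The other cell types that such cultures could hold were followed by marker lists. Of 13 measured fibroblast markers, limma called 1 higher and 2 lower in IVDS2 than in ES cells, with a median difference of -0.024 against -0.042 over all genes. Leaving out 1 array gave 1 to 3 higher (3 without ES replicate 1) and 1 or 2 lower (1 without ES replicate 2 or either IVDS2 array). The mean of this list was -0.13 and -0.16 on the ES arrays, -0.26 and -0.13 on IVDS2, 0.20 and 0.11 on IVDS2-C, 0.20 and 0.04 on IVDS2-P, and 1.44 and 1.19 on IVDS3. COL1A2 (1.34 ± 0.16) was the member called higher in IVDS2, and TWIST1 (-1.45 ± 0.35) had the largest fall. Of 13 markers of trophoblast and surface epithelium, limma called 11 higher in IVDS2 than in ES cells and 0 lower. On the ES arrays the list mean was -1.83 and -1.55, on IVDS2 0.41 and 0.26, and on IVDS2-C 0.39 and 0.56. It was -1.20 and -0.91 on IVDS2-P and 0.80 and 0.88 on IVDS3. The list was thus lowest in the periphery after ES cells and highest at stage 3. At stage 3 HAPLN1, COLEC12 and ERP27 lay below whole IVDS2, NR2F2 lay close to it, and DENND1B lay above it. Of 11 hepatic markers limma called 1 lower in IVDS2 and 0 higher (1 at an unadjusted p under 0.05), which became 2 higher and 0 lower without IVDS2 replicate 1. Of 10 mesoderm and endothelial markers it called 1 in each direction, and 0 in each without ES replicate 2 or IVDS2 replicate 2. With so few calls in the fibroblast, hepatic and mesoderm lists, nothing is read from their counts. In bulk RNA, more cells of a type and more RNA per cell cannot be told apart. The part of other cell types in the values of the 5 genes was not tested.

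HAPLN1, the link protein, stood highest in whole stage 2 cultures and lay lower in both parts of the colony, lower again at stage 3, and lowest in ES cells. Its probe set MmuSTS.226.1.S1_at read -6.14 and -5.56 on the ES arrays, 2.21 and 2.26 on IVDS2, 1.73 and 1.36 on IVDS2-C, -0.28 and 0.28 on IVDS2-P, and -1.19 and -0.79 on IVDS3. The groups kept that order with no overlap between the arrays of neighbouring groups. MmugDNA.10462.1.S1_at read -4.44 and -4.37 on the ES arrays, 2.52 and 2.44 on IVDS2, 1.90 and 1.25 on IVDS2-C, -0.36 and 0.36 on IVDS2-P, and -1.46 and -0.92 on IVDS3. MmugDNA.38884.1.S1_at read -4.13 and -3.84 on the ES arrays, 2.07 and 2.42 on IVDS2, 2.08 and 1.70 on IVDS2-C, -0.38 and 0.38 on IVDS2-P, and -1.54 and -0.70 on IVDS3. The order of the groups was the same on all 3 probe sets, and IVDS2 and IVDS2-C overlapped on MmugDNA.38884.1.S1_at. The difference between whole IVDS2 and ES cells was 8.09 ± 0.25 (SE, n = 2 arrays per group, 272-fold) on MmuSTS.226.1.S1_at, 6.88 ± 0.28 (118-fold) on MmugDNA.10462.1.S1_at and 6.23 ± 0.32 (75.0-fold) on MmugDNA.38884.1.S1_at. The probe sets differed mainly in how low the ES arrays read.

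**Figure D1:**
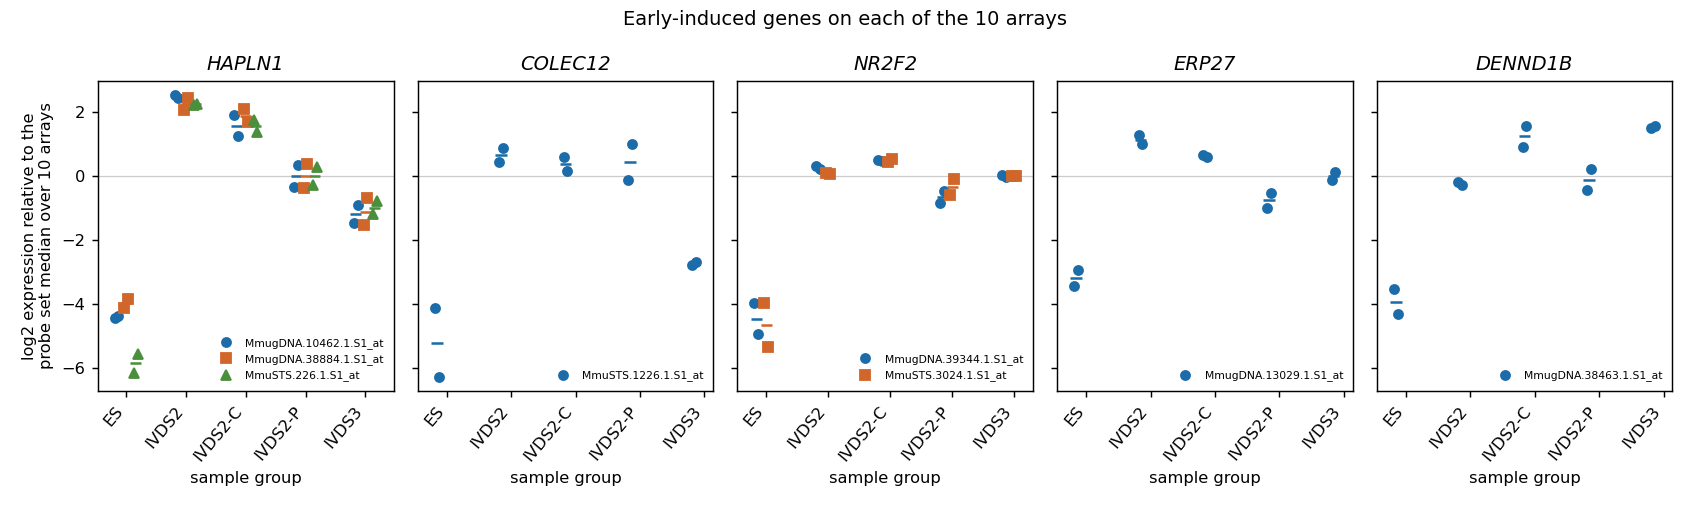
Log2 expression (vertical axis, relative to the median of each probe set over the 10 arrays) of HAPLN1, COLEC12, NR2F2, ERP27 and DENND1B in the 5 groups (horizontal axis). Points are single arrays, short lines are group means of 2 arrays, and colours and symbols mark probe sets. The 2 ES arrays are lowest in every panel, HAPLN1 is highest in IVDS2, COLEC12 drops in IVDS3 to -2.80 and -2.68, and DENND1B is highest in IVDS3.

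COLEC12, the scavenger receptor, overlapped across the 3 stage 2 groups and was low again at stage 3. It was read by 1 probe set, and its SE comes from a spread shared over all 5 groups. The SD of the 2 arrays was 1.52 in ES cells, 0.80 in IVDS2-P, 0.32 in IVDS2, 0.31 in IVDS2-C and 0.08 in IVDS3. Its probe set read -4.13 and -6.28 on the ES arrays, 0.43 and 0.88 on IVDS2, 0.58 and 0.14 on IVDS2-C, -0.14 and 0.99 on IVDS2-P, and -2.80 and -2.68 on IVDS3. The 3 stage 2 groups overlapped, both IVDS3 arrays lay below all of them, and both ES arrays lay below IVDS3. Whole IVDS2 stood 5.86 ± 0.59 above ES cells (58.2-fold), the centre 5.57 ± 0.59 and the periphery 5.63 ± 0.59. The ES arrays lay far apart on this probe set, so these distances depend on which of them is used. Against ES replicate 1 alone the distance of whole IVDS2 was 4.79, and against ES replicate 2 alone it was 6.94. At stage 3 the distance from ES cells was 2.47 ± 0.59, with 1.39 against ES replicate 1 and 3.54 against ES replicate 2.

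NR2F2, the nuclear receptor, stood at stage 3 close to its level in whole IVDS2. MmugDNA.39344.1.S1_at read -3.97 and -4.95 on the ES arrays, 0.30 and 0.21 on IVDS2, 0.48 on both IVDS2-C arrays, -0.84 and -0.46 on IVDS2-P, and 0.03 and -0.03 on IVDS3. MmuSTS.3024.1.S1_at read -3.98 and -5.33 on the ES arrays, 0.09 and 0.07 on IVDS2, 0.44 and 0.52 on IVDS2-C, -0.59 and -0.09 on IVDS2-P, and 0.0039 and -0.0039 on IVDS3. On both probe sets the order was centre, whole IVDS2, IVDS3, periphery and ES cells, with no overlap between neighbours, though the first 3 of these groups lay within 0.48 of each other. Whole IVDS2 stood 4.71 ± 0.27 (26.2-fold) and 4.74 ± 0.35 (26.7-fold) above ES cells on the respective probe sets, and IVDS3 stood 4.46 ± 0.27 and 4.66 ± 0.35 above them. The difference of IVDS3 from whole IVDS2, -0.25 ± 0.27 and -0.080 ± 0.35, was no larger than its standard error. That SE is shared over the groups and holds the spread of the ES arrays. The SD of the 2 arrays was 0.69 and 0.96 in ES cells, 0.06 and 0.01 in IVDS2, and 0.04 and 0.0055 in IVDS3. Against ES replicate 1 alone the whole IVDS2 distances were 4.23 and 4.06, and against ES replicate 2 alone they were 5.20 and 5.41.

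ERP27, the ER protein, was highest in whole IVDS2. It read -3.45 and -2.95 on the ES arrays, 1.26 and 0.99 on IVDS2, 0.65 and 0.58 on IVDS2-C, -0.999 and -0.52 on IVDS2-P, and -0.12 and 0.12 on IVDS3. The arrays of the 5 groups did not overlap, and IVDS3 lay between the centre and the periphery of stage 2 colonies. Whole IVDS2 stood 4.33 ± 0.21 above ES cells (20.1-fold), the centre 3.82 ± 0.21, IVDS3 3.20 ± 0.21 and the periphery 2.44 ± 0.21 (5.44-fold).

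DENND1B, the RAB35 activator, had another order. It read -3.55 and -4.31 on the ES arrays, -0.20 and -0.27 on IVDS2, 0.92 and 1.55 on IVDS2-C, -0.45 and 0.20 on IVDS2-P, and 1.49 and 1.54 on IVDS3. IVDS3 and the centre were highest and overlapped, the periphery and whole IVDS2 lay below them and overlapped, and the ES arrays were lowest. The distance from ES cells was 3.69 ± 0.30 in whole IVDS2 (12.9-fold), 3.80 ± 0.30 in the periphery, 5.16 ± 0.30 in the centre (35.7-fold) and 5.44 ± 0.30 at stage 3 (43.5-fold). Against ES replicate 1 alone the whole IVDS2 value was 3.31, and against ES replicate 2 alone it was 4.07.

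**Figure D2:**
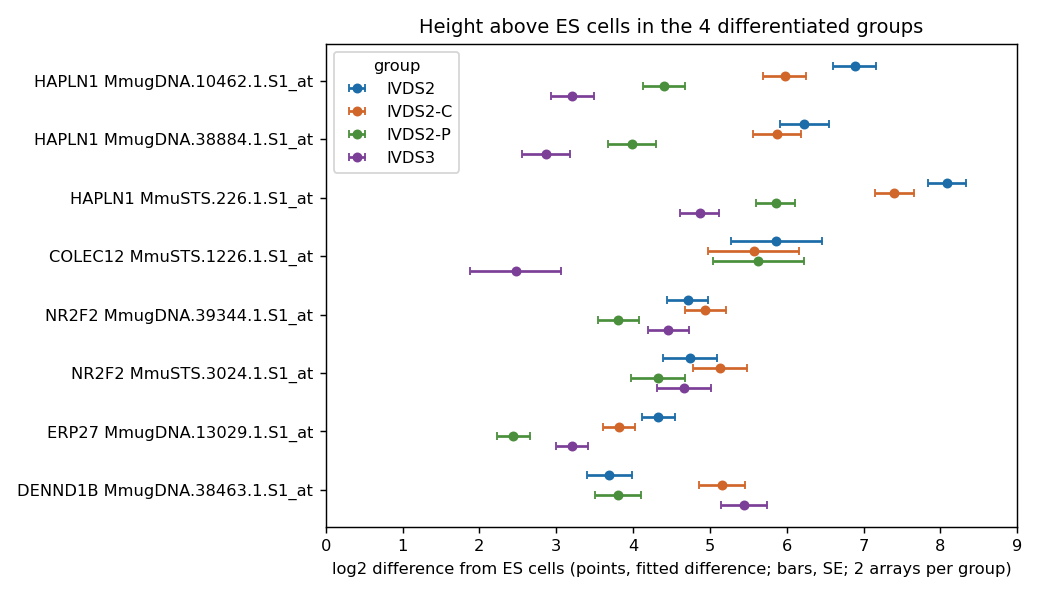
Log2 difference from ES cells (horizontal axis) for each of the 8 probe sets (vertical axis) in whole IVDS2, colony centre (IVDS2-C), colony periphery (IVDS2-P) and IVDS3. Points are fitted differences and bars are standard errors, with 2 arrays per group. HAPLN1 runs from 8.09 in IVDS2 to 4.87 in IVDS3 on MmuSTS.226.1.S1_at, whereas DENND1B runs from 3.69 to 5.44.

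Between stages 2 and 3 the genes thus parted. The IVDS3 values lay below whole IVDS2 on every HAPLN1 probe set, with differences of -3.22 ± 0.25 to -3.67 ± 0.28 (9.34-fold to 12.8-fold lower), and for COLEC12, with -3.39 ± 0.59 (10.5-fold lower). The difference was -1.12 ± 0.21 for ERP27, -0.25 ± 0.27 and -0.080 ± 0.35 for NR2F2, and 1.75 ± 0.30 for DENND1B, which lay 3.37-fold higher. Against the colony centre, the IVDS3 values were -2.54 ± 0.25 to -3.01 ± 0.32 for HAPLN1, -3.10 ± 0.59 for COLEC12, -0.61 ± 0.21 for ERP27, -0.48 ± 0.27 and -0.48 ± 0.35 for NR2F2, and 0.29 ± 0.30 for DENND1B. Against the periphery they were -0.99 ± 0.25 to -1.19 ± 0.28 for HAPLN1, -3.16 ± 0.59 for COLEC12, 0.76 ± 0.21 for ERP27, 0.65 ± 0.27 and 0.34 ± 0.35 for NR2F2, and 1.64 ± 0.30 for DENND1B. The stage 3 value of COLEC12 lay about as far below each of the 3 stage 2 groups, 8.57-fold below the centre and 8.94-fold below the periphery, while HAPLN1 lay nearer to the periphery than to the centre. For DENND1B the difference from the centre was no larger than its standard error. These differences share arrays with the choice of the genes and are given without a test. By height above ES cells the genes ranked 43 (DENND1B), 84 (NR2F2), 163 (HAPLN1), 220 (ERP27) and 384 (COLEC12) of 13191 at stage 3.

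The labels do not say how the whole IVDS2 samples relate to the dissected colonies. On 3 of the 8 probe sets (2 of HAPLN1 and that of ERP27) both whole IVDS2 arrays lay above all 4 arrays of centre and periphery, which was so for 13.3% of all tested probe sets. The choice used the whole IVDS2 arrays, so the count is a description. DENND1B was 1.47 ± 0.30 higher in the centre than in whole IVDS2 and differed by 0.11 ± 0.30 between periphery and whole IVDS2, while the centre and the periphery differed from whole IVDS2 by -0.36 ± 0.32 to -0.91 ± 0.28 and by -2.23 ± 0.25 to -2.48 ± 0.28 on the HAPLN1 probe sets.

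The comparison of centre and periphery asks how the genes are placed within the colony, since the title of the series refers to the topology of differentiating colonies. The genes were not chosen by this contrast, but they also rank high above ES cells in both areas. These arrays are therefore not independent of the choice, the p-values carry that limit, and the counts are a description. With all 10 arrays in the fit, HAPLN1, ERP27 and DENND1B were called higher in the centre, NR2F2 was called on 1 of its 2 probe sets, and COLEC12 was not called. Of the 8 probe sets, 6 were called higher in the centre (limma, with p-values adjusted by Benjamini-Hochberg and a threshold of 0.05), against 3.85% of all tested probe sets in that direction and 5.84% in either. None was called lower, against 2.00% of all, and at an unadjusted p under 0.05 the counts were 7 higher and 0 lower. Both centre arrays lay above both periphery arrays on 7 of the 8 probe sets, which was so for 24.0% of all tested probe sets, with the reverse order in 30.4%.

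The size of the difference in HAPLN1 was similar on its 3 probe sets. It was 1.57 ± 0.28 on MmugDNA.10462.1.S1_at (2.98-fold, adjusted p = 0.0122), 1.89 ± 0.32 on MmugDNA.38884.1.S1_at (3.70-fold, adjusted p = 0.0094) and 1.55 ± 0.25 on MmuSTS.226.1.S1_at (2.92-fold, adjusted p = 0.00822). ERP27 was 1.38 ± 0.21 higher in the centre (2.59-fold, adjusted p = 0.00632) and DENND1B 1.36 ± 0.30 higher (2.56-fold, adjusted p = 0.0293). NR2F2 was called on MmugDNA.39344.1.S1_at (1.13 ± 0.27, 2.19-fold, adjusted p = 0.0398) and not on MmuSTS.3024.1.S1_at (0.82 ± 0.35, 95% interval 0.028 to 1.61, adjusted p = 0.23). For COLEC12 the difference was -0.061 ± 0.59, with a 95% interval from -1.39 to 1.27 and adjusted p = 0.977. That interval is wide enough to hold a difference of the size seen in NR2F2. Its width draws on the spread of all 5 groups, the ES arrays among them.

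**Figure D3:**
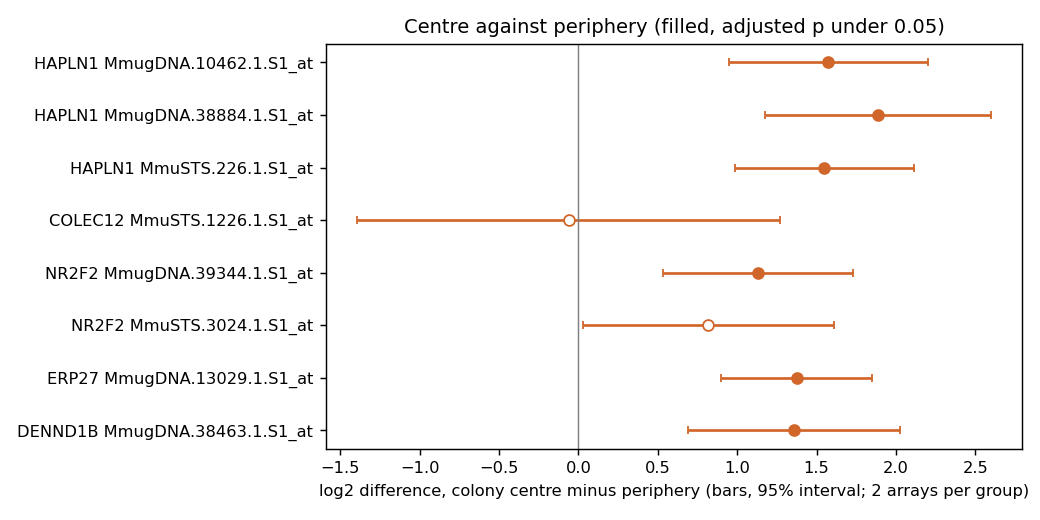
Log2 difference between colony centre and colony periphery at stage 2 (horizontal axis, centre minus periphery) for the 8 probe sets (vertical axis), with 2 arrays per group. Points are fitted differences, bars are 95% intervals, and filled points passed an adjusted p of 0.05. The 6 filled points lie between 1.13 and 1.89, and COLEC12 lies at -0.061.

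These calls depend on which arrays enter the fit. With only the 4 centre and periphery arrays fitted, 4 of the 8 probe sets were called, and the calls of HAPLN1 on MmugDNA.10462.1.S1_at (adjusted p = 0.0565) and of DENND1B (adjusted p = 0.069) were lost. On all 8 probe sets IVDS2-P replicate 1 read lower than IVDS2-P replicate 2, and without replicate 1 limma called 0 of the 8 (6 higher at an unadjusted p under 0.05), with adjusted p of 0.0627 for ERP27 and 0.0762 to 0.0969 for HAPLN1. The differences themselves remained above 0 on 7 probe sets without that array, at 1.22 to 1.51 for HAPLN1, 1.14 for ERP27, 1.03 for DENND1B and 0.57 to 0.94 for NR2F2, and COLEC12 was at -0.62. HAPLN1 and ERP27 were called on all their probe sets whichever of the other 9 arrays was left out. DENND1B also lost its call without IVDS2-C replicate 2 (adjusted p = 0.261) and without either IVDS3 array. Among the single omissions, NR2F2 kept the call of MmugDNA.39344.1.S1_at only without an ES array, and was then called on both probe sets, which brought the count to 7. Without IVDS2-C replicate 2 or either IVDS3 array the count was 4. The same comparison over all probe sets fell from 2582 calls to 684 without IVDS2-P replicate 1.

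Most markers of trophoblast and surface epithelium were also higher in the centre. Of 13 measured, 9 were called higher and 0 lower (11 and 1 at an unadjusted p under 0.05), beside 5.64% and 3.95% of all genes. These markers had a median of 1.19 against -0.034 over all genes. GATA3 (3.57 ± 0.33) and VGLL1 (3.28 ± 0.29) led them, and 6 to 10 were higher whichever array was left out, 6 without IVDS2-C replicate 2 or IVDS2-P replicate 1. Fibroblast markers were split, with 3 of 13 higher and 3 lower in the centre, led by LUM (2.36 ± 0.21) and TWIST1 (-2.91 ± 0.35). The number lower was 1 without either centre array or IVDS2-P replicate 1. Pluripotency markers were lower in the centre for 5 of 10, a count that was 1 if IVDS2-P replicate 1 was omitted, 2 for IVDS2-P replicate 2, and 3 for IVDS2-C replicate 2 or either IVDS3 array. The hepatic list gave 0 calls of 11 (1 at an unadjusted p under 0.05), and of 10 mesoderm and endothelial markers 2 were higher, falling to 1 if IVDS2-C replicate 2 was omitted and to 0 for IVDS2-P replicate 1. With so few calls in the hepatic and mesoderm lists, nothing is read from their counts. The part of the listed cell types in the differences of HAPLN1, ERP27, NR2F2 and DENND1B was not tested.

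The partners of HAPLN1 were called in IVDS2 about as often as all genes, so nothing is read from their count. The list of 25 measured genes of hyaluronan synthesis, binding and breakdown held 1 gene that rose and 2 that fell in IVDS2 against ES cells, with a median of -0.076 against -0.042 over all genes. Without ES replicate 1, 4 of the list fell, and without either IVDS2-C array 2 rose. Over all 13191 genes, 6.50% were called higher and 6.23% lower in that comparison, 12.7% in all. The genes that fell were its relatives HAPLN4 (-1.58 ± 0.19, adjusted p = 0.00121) and HAPLN3 (-1.11 ± 0.20, adjusted p = 0.00741), the latter not called without ES replicate 2 (adjusted p = 0.052). HAPLN3 read 0.96 and 1.26 on the ES arrays against -0.013 and 0.013 on IVDS2, and HAPLN4 read 1.18 and 1.72 against 0.064 and -0.32. In both, the ES arrays lay above the stage 2 and stage 3 arrays, the reverse of HAPLN1. LAYN, a hyaluronan receptor named after its value was seen, was the one that rose (1.27 ± 0.18, adjusted p = 0.00234).

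Versican, encoded by VCAN and a ligand of the link protein, lies next to HAPLN1 in the RefSeq annotation (T2T-MMU8v2.0). VCAN read 0.95 and 0.29 on the ES arrays, 0.058 and 0.059 on IVDS2, -0.35 and -0.83 on IVDS2-C, 0.94 and 1.05 on IVDS2-P, and -0.35 and -0.70 on IVDS3. It was lower in the centre than in the periphery by 1.58 ± 0.23 (adjusted p = 0.00446), where HAPLN1 was higher, and it was the only gene of the list called in that comparison, against 3.95% of all genes called lower, 5.64% higher and 9.59% in either direction. At an unadjusted p under 0.05, 1 gene of the list was higher and 5 lower. Without either ES array or IVDS2-C replicate 1, 3 of the list were called lower, and without IVDS2-P replicate 2, 1 was called in each direction. By stage 3, 3 of the 25 had risen and 5 had fallen against ES cells, where 21.1% of all genes rose and 28.6% fell, 49.7% together. CD44, the main hyaluronan receptor of the cell surface, rose by 1.36 ± 0.18 (adjusted p = 0.000264), while VCAN fell by 1.14 ± 0.23 and HAPLN3 by 1.93 ± 0.20. Without ES replicate 1, 11 of the list fell, and without IVDS3 replicate 2, 1 rose.

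Among 17 measured collectins and scavenger receptors other than COLEC12, CD36 was the single gene called in IVDS2 against ES cells (2 higher and 0 lower at an unadjusted p under 0.05). Over all genes 6.50% were called higher and 6.23% lower in that comparison, so nothing is read from the count. CD36, a scavenger receptor for lipids, read -2.70 and -3.04 on the ES arrays, 0.28 and -0.28 on IVDS2, 2.13 and 2.00 on IVDS2-C, -1.40 and -1.68 on IVDS2-P, and 1.84 and 1.72 on IVDS3. It rose by 2.87 ± 0.20 in IVDS2 (adjusted p = 0.000108) and by 4.65 ± 0.20 in IVDS3 (adjusted p = 7.24e-07), and was 3.61 ± 0.20 higher in the centre than in the periphery (adjusted p = 9.01e-05). COLEC12, by contrast, overlapped between centre and periphery and was low at stage 3. At stage 3, 6 of the 17 had risen and 2 had fallen against ES cells, beside 21.1% and 28.6% of all genes, and calls in either direction were about as frequent in the list as over all genes (49.7%). OLR1, a receptor for oxidised lipoprotein (2.22 ± 0.20), MEGF10, an engulfment receptor (1.84 ± 0.19), and the phospholipase receptor PLA2R1 (1.42 ± 0.20) were among the former. Those that fell numbered 5 without ES replicate 1, and 1 without any other array except IVDS3 replicate 1. PLA2R1 was also higher in the centre (0.95 ± 0.20, adjusted p = 0.0209), a call lost without IVDS2-C replicate 2 (adjusted p = 0.164) or either periphery array, which left CD36 alone.

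NR2F1, the close relative of NR2F2, rose with it. NR2F1 read -2.37 and -3.74 on the ES arrays, -0.47 and -1.26 on IVDS2, 0.47 and 0.46 on IVDS2-C, 0.021 and 0.63 on IVDS2-P, and 0.15 and -0.021 on IVDS3. Both ES arrays lay below all others, and whole IVDS2 lay below the other differentiated groups, a step that NR2F2 did not show. It rose by 2.19 ± 0.41 in IVDS2 (adjusted p = 0.00951, and 0.0621 without IVDS2 replicate 1) and by 3.12 ± 0.41 in IVDS3 (adjusted p = 0.000269). The list of 21 measured genes held NR2 and retinoid receptors, retinoid handling genes and the co-receptors NRP1 and NRP2. Of these 21, 4 rose and 2 fell in IVDS2, beside 6.50% and 6.23% of all genes. The list median was 0.0011 against -0.042 over all genes. The list genes that rose were NR2F1, the retinoic acid binding proteins CRABP1 (1.76 ± 0.40) and CRABP2 (1.24 ± 0.19), and the co-receptor NRP2 (1.18 ± 0.28), with adjusted p of at most 0.027. CYP26A1, which breaks down retinoic acid, fell by 2.04 ± 0.45 (adjusted p = 0.0194) and RBP4, a retinol carrier, by 0.38 ± 0.11 (adjusted p = 0.0475). CRABP2, NRP2 and RBP4 were named after their values were seen.

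Several of these stage 2 calls were lost with 1 array. The highest adjusted p without 1 array was 0.12 for CRABP1, 0.154 for NRP2, 0.115 for CYP26A1 and 0.218 for RBP4, and 0.0311 for CRABP2. Without IVDS2 replicate 1, 1 gene of the retinoid list rose and 0 fell, 0 also fell without ES replicate 2 or IVDS2 replicate 2, and 1 fell without any 1 of the IVDS2-C, IVDS2-P or IVDS3 arrays. At stage 3, 11 of the 21 had risen and 2 had fallen, beside 21.1% and 28.6% of all genes, with a median of 0.50 against -0.13 over all genes. RARB, a retinoic acid receptor that is itself a retinoic acid target, rose by 1.59 ± 0.24 (adjusted p = 0.000545), and CRABP1 by 1.47 ± 0.40 (adjusted p = 0.0139, and 0.0923 without ES replicate 2). The number that rose was 6 without ES replicate 2 and 4 without IVDS3 replicate 2, and 1 fell without either IVDS3 array. Between centre and periphery 3 of the list were called, all higher in the centre, beside 5.64% of all genes higher and 3.95% lower. At an unadjusted p under 0.05, 5 of the list were higher and 0 lower. The count of 3 became 1 without IVDS2-C replicate 2 and 0 without IVDS2-P replicate 1. The 3 genes were STRA6, the retinol uptake receptor (1.25 ± 0.25), DHRS3 (1.01 ± 0.17), which reduces retinal to retinol, and the co-receptor NRP1 (0.56 ± 0.15), named after their values were seen.

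PDIA3, the partner of ERP27, was not called in any of the 3 comparisons, with -0.27 ± 0.098 in IVDS2 and -0.21 ± 0.098 in IVDS3 against ES cells and 0.16 ± 0.098 between centre and periphery. It belongs to a list of 22 measured disulfide isomerases and ER folding genes, of which 2 rose in IVDS2, CASQ2 (1.68 ± 0.24, adjusted p = 0.00225) and TMX3 (0.63 ± 0.12, adjusted p = 0.012). TMX1 fell by 1.08 ± 0.13 (adjusted p = 0.00126), with a list median of 0.016 against -0.042 over all genes. Over all genes 6.50% were called higher and 6.23% lower in that comparison, so nothing is read from the counts. CASQ2 is a calcium store protein with thioredoxin-like folds, and TMX1 and TMX3 are membrane-bound isomerases, the latter pair named after their values were seen. TMX3 was not called without IVDS2 replicate 2 (adjusted p = 0.0897), and without ES replicate 1 the counts were 3 and 2. By stage 3, 9 of the 22 had risen and 3 had fallen, beside 21.1% and 28.6% of all genes and 49.7% in either direction. The largest rises were those of AGR3 (4.26 ± 0.34), CASQ2 (3.17 ± 0.24), AGR2 (2.43 ± 0.14) and CASQ1 (1.35 ± 0.18), with adjusted p of at most 0.000285. AGR2 and AGR3 are isomerase relatives of mucous epithelia. AGR3 read -0.19 and -0.13 on the ES arrays, 0.020 and -0.020 on IVDS2, 1.51 and 2.90 on IVDS2-C, -0.42 and -0.36 on IVDS2-P, and 4.07 and 4.13 on IVDS3. It was higher in the centre by 2.60 ± 0.34 (adjusted p = 0.00277), as ERP27 was, but at stage 3 it stood highest where ERP27 lay below the centre. CASQ2 was higher in the centre too (1.37 ± 0.24), a call lost without IVDS2-C replicate 2 or IVDS2-P replicate 1. The oxidase ERO1B, named after its value was seen, was lower (-0.52 ± 0.13, adjusted p = 0.0347), a call lost without any 1 of the centre, periphery or IVDS3 arrays.

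DENND2C, another DENN domain protein, followed DENND1B closely. DENND2C read -2.65 and -3.03 on the ES arrays, -0.22 and -0.56 on IVDS2, 1.03 and 1.19 on IVDS2-C, -0.17 and 0.17 on IVDS2-P, and 1.70 and 1.41 on IVDS3. As in DENND1B, the centre and IVDS3 were highest and the ES arrays lowest. It rose by 2.45 ± 0.19 in IVDS2 (adjusted p = 0.000205) and by 4.39 ± 0.19 in IVDS3 (adjusted p = 7.75e-07), and was 1.11 ± 0.19 higher in the centre (adjusted p = 0.00868, and 0.0771 without IVDS2-P replicate 1). Of the 24 measured DENN domain proteins and RAB35 partners, 2 rose and 0 fell in IVDS2, the other being the RAB35 effector MICALL1 (1.04 ± 0.14, adjusted p = 0.00187). The falls were 0 whichever array was left out, and 3 at an unadjusted p under 0.05. Over all genes 6.50% were called higher and 6.23% lower in that comparison, so nothing is read from these counts. By stage 3, 7 had risen and 4 had fallen, beside 21.1% and 28.6% of all genes, so that calls in either direction were about as frequent as over all genes (49.7%). DENND2D (2.18 ± 0.17), MICALL1 (1.74 ± 0.14) and DENND4A (1.41 ± 0.25) were among those that rose. The falls numbered 2 without ES replicate 2 or either IVDS3 array. Between centre and periphery DENND2C, DENND2D (1.28 ± 0.17) and MICALL1 (1.04 ± 0.14) were higher and 0 were lower (2 at an unadjusted p under 0.05), with 1 lower without either ES array. Over all genes 5.64% were called higher and 3.95% lower there.

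**Figure D4:**
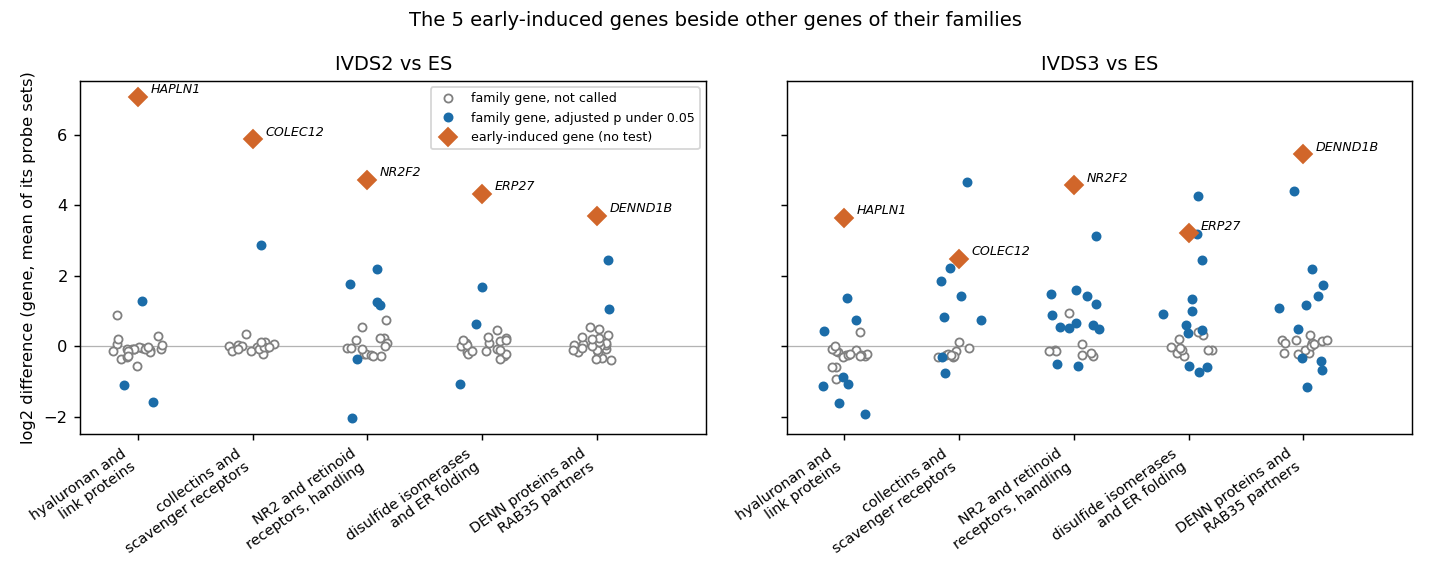
Log2 difference from ES cells (vertical axis) of the 5 early-induced genes (diamonds, mean of their probe sets, no test) and of the other measured genes of their families (circles, filled at adjusted p under 0.05), for IVDS2 and IVDS3. At IVDS2 each of the 5 genes lies above all circles of its column, but the genes were chosen by that difference, so nothing is read from it. At IVDS3 COLEC12 lies at 2.47 below CD36 at 4.65, and ERP27 at 3.20 below AGR3 at 4.26.

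Over the 8 differentiated arrays, with the ES arrays set aside, the correlations among the 5 genes ran from negative to high. NR2F2 and ERP27 gave r = 0.82, HAPLN1 gave 0.80 with COLEC12, 0.77 with ERP27 and 0.56 with NR2F2, and NR2F2 and DENND1B gave 0.50. COLEC12 gave 0.26 with ERP27 and 0.11 with NR2F2, ERP27 and DENND1B gave 0.034, whereas COLEC12 and DENND1B gave r = -0.65 and HAPLN1 and DENND1B r = -0.41. These values describe 8 arrays of 4 groups, in which arrays of a group are not independent, and carry no test. Over all 10 arrays, in which the ES pair is low for every gene, r ran from 0.64 for COLEC12 and DENND1B to 0.95 for HAPLN1 and ERP27.

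The genes with the most similar profiles were sought by Pearson correlation over the 10 arrays, among 1094 genes whose group means span at least 2 log2 units. For HAPLN1 they were EDDM3A (r = 0.97), the homeobox factor MSX2 (0.96) and AXIN2 (0.96), a feedback inhibitor and target of WNT signalling. For COLEC12 they were the paired box factor PAX3 (0.99), AXIN2 (0.97) and the homeobox factor MSX1 (0.97). AXIN2 read -1.48 and -1.91 on the ES arrays, 0.67 and 0.69 on IVDS2, 0.35 and 0.027 on IVDS2-C, -0.027 and 0.53 on IVDS2-P, and -0.59 and -0.42 on IVDS3, so it too was highest in whole IVDS2 and lower at stage 3. For NR2F2 they were WLS, a carrier that secretes WNT proteins (0.99), the imprinted gene PEG3 (0.99) and the serpin SERPINI1 (0.98). WLS read -2.49 and -4.15 on the ES arrays and between -0.43 and 0.55 on all others, a plateau as in NR2F2. For ERP27 they were the sodium-proton exchanger SLC9A5 (0.98), the transcription factor TFAP2A (0.97) and LOC712612 (0.97), and for DENND1B they were DENND2C (0.99), the chromatin factor ARID5B (0.98) and PLXDC2 (0.98). With Spearman correlation 2 of the 3 genes were the same for HAPLN1 (EDDM3A and AXIN2), 1 for COLEC12 (PAX3), 1 for ERP27 (SLC9A5), 1 for DENND1B (PLXDC2) and 0 for NR2F2. The ES pair, low for every member, weighs on all these correlations, and the search was not repeated without it.

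**Figure D5:**
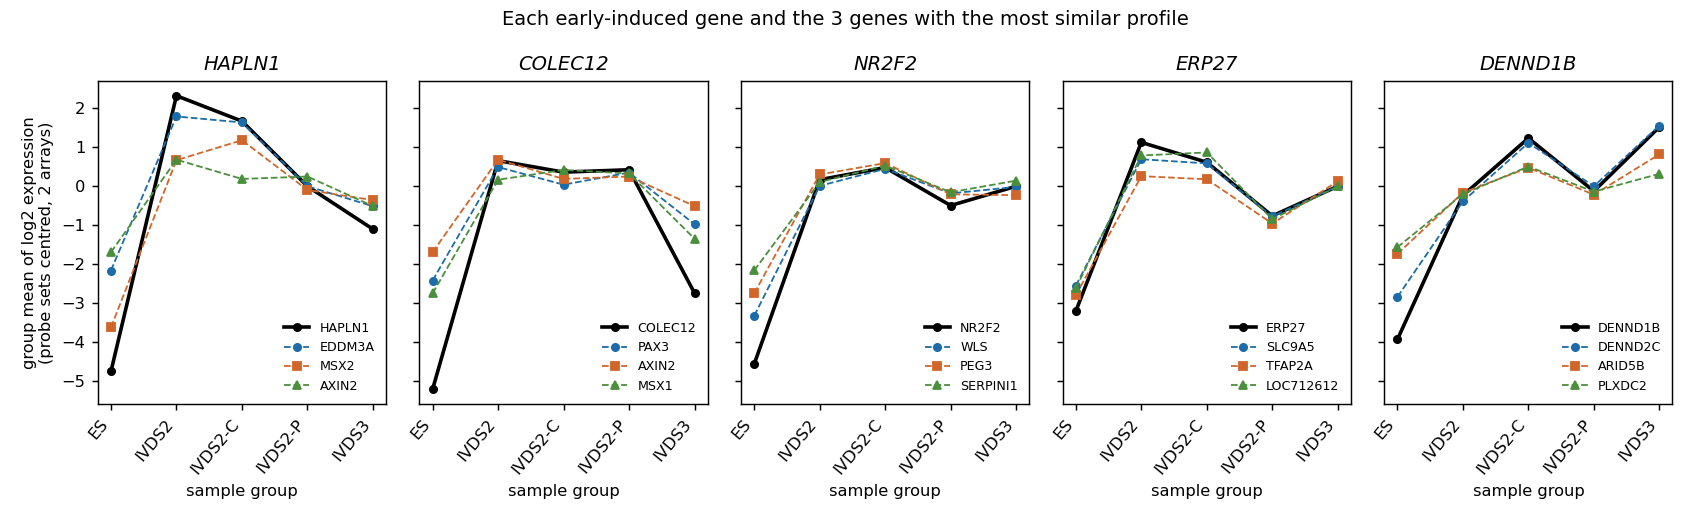
Group means of log2 expression (vertical axis, probe sets centred, 2 arrays per group) in the 5 groups (horizontal axis) for each early-induced gene (black) and the 3 genes with the highest Pearson correlation to it over the 10 arrays (dashed). Lines join groups to guide the eye and are no time course, since IVDS2-C and IVDS2-P are parts of colonies of the same stage. DENND2C follows DENND1B up to IVDS3, and AXIN2 appears beside both HAPLN1 and COLEC12.

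Of the genes next to the 5 in the RefSeq order, 5 were measured: VCAN beside HAPLN1, CETN1 beside COLEC12, MGP and ARHGDIB beside ERP27, and C1H1orf53 beside DENND1B. Limma called 0 of these neighbours in IVDS2 against ES cells (VCAN and C1H1orf53 passed an unadjusted p of 0.05), beside 12.7% of all genes. With 5 genes measured, nothing is read from that count. Differences ran from -0.56 ± 0.23 (VCAN, adjusted p = 0.159) to 0.53 ± 0.19 (C1H1orf53, adjusted p = 0.104). The 5 members stood at 3.69 to 7.07, the distance by which they were chosen. At stage 3, ARHGDIB (0.90 ± 0.12, adjusted p = 0.000263) and C1H1orf53 (0.98 ± 0.19, adjusted p = 0.00224) rose, VCAN fell, and MGP and CETN1 were not called. These 3 calls of 5 stand beside 49.7% of all genes, so they are no trait of the neighbours. The neighbours were chosen after the data were seen.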

How the data were processed

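The study used 10 Affymetrix rhesus macaque arrays. The deposited table holds log2 values, and the submitters' processing notes name RMA (its version is not given in the sources used here). The log base was inferred from the values. Each of the 44294 probe sets had a median of 0 over the 10 arrays, so the values had been centred before they were deposited, which leaves no absolute level and no filter on dim signal. The 84 control probe sets were left out. Gene names came from the platform annotation (22802 probe sets with 1 gene, 316 with several, 21092 with none). Probe sets of a gene were averaged on each array. No columns of other samples were present.

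Groups came from the sample titles. One linear model with a term per group was fitted to all 10 arrays with limma 3.58.1 under R 4.3.3, with moderated variances, and p-values were adjusted by Benjamini-Hochberg over all probe sets, or over all genes for the lists, within each comparison, with a threshold of 0.05. The fit was tested on simulated data. The members, the 5 family lists and the 5 marker lists were chosen with earlier results of these data known. Tests of IVDS3 against IVDS2-C and IVDS2-P had been planned for the members and were not used, because the members also rank high in both areas. A planned search for promoter motifs was not run. Genes are named by a rule: the 5 members, up to 4 called genes of each family list by size of change, the 3 genes most like each member, and the 2 largest changes of a marker list. Alternatives were centring each array, a fit to the compared groups alone, a term for the replicate number, omission of single arrays, the most variable probe set of a gene, and Spearman correlation. Figures were drawn with matplotlib 3.10.9.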

Additional observations from a re-analysis of the deposited data

How the results depend on the processing

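Each result was recomputed with every array centred on its median, with only the arrays of the groups compared, with the replicate number as a block, and without each array in turn. With only the arrays compared, the calls between centre and periphery were 4 probe sets of the 5 genes (6 with all arrays), 1685 of all probe sets (2582 with all arrays) and 614 of all genes (1265), and those of IVDS2 against ES cells were 982 genes (1680). Leaving out 1 array gave 0 to 7 called probe sets of the 5 genes between centre and periphery (6 with all arrays), 684 to 3418 of all probe sets and 348 to 1612 of all genes there, 768 to 2150 genes for IVDS2 against ES cells and 4841 to 6845 for IVDS3 (6557). The labels do not say whether equal replicate numbers pair the samples. Over 10 pairs of groups the replicate differences correlated from -0.12 to 0.25, and 5 of them above 0.1, which does not settle it. With the replicate block 6 probe sets of the 5 genes were called between centre and periphery, as without it, beside 3090 of all probe sets and 1441 of all genes, and 1799 and 6611 genes were called for IVDS2 and IVDS3 against ES cells. The untested difference of DENND1B between IVDS3 and the centre turned from 0.29 to -0.033 without IVDS2-C replicate 1 and was 0.60 without replicate 2, its lowest and highest values; the cause was not tested. Centring moved the share of higher calls by less than 10 percentage points. Quantile normalization and filters on dim signal could not be applied to centred values.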
